A study of Homo sapiens with 3 samples.

Results

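Small nucleolar RNA host genes are genes whose introns carry small nucleolar RNAs (snoRNAs). The 33 members described here are all RefSeq genes on chromosomes 1 to 22 and X with a symbol made of SNHG and a number, plus GAS5, DANCR, EPB41L4A-AS1 and ZFAS1, and each is annotated as a long noncoding RNA (lncRNA) gene. They were chosen by symbol out of 59094 annotated genes. Each was paired with the peaks of a deposited MYC peak list whose summit, the position of highest enrichment, lay inside the annotated gene or within 5000 bp of it. The assay was ChIP-Rx, in which cells of a second species are mixed in so that their DNA can serve as a reference, here mouse NIH3T3 fibroblasts at 10%. The human cells were U2OS, an osteosarcoma line, in its parental form and with no treatment named. An anti-MYC antibody was used for 2 libraries, called biological replicates in the series design, and 1 library was input chromatin. Only 1 peak list, with 9818 peaks, was analysed, so no value below has a replicate error, the depth is unknown and no test between conditions is possible. Peak calls carry no expression values, so the cell line could not be checked against marker genes.

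A host gene is transcribed and spliced like a messenger RNA gene, and its snoRNAs are trimmed out of the excised introns. Box C/D snoRNAs (SNORD genes) guide 2′-O-methylation of ribosomal RNA, H/ACA snoRNAs (SNORA genes) guide pseudouridylation, and small Cajal body RNAs (SCARNA genes) guide the same changes in spliceosomal RNAs. Many of the spliced host transcripts begin with a pyrimidine tract, as ribosomal protein messages do, and are removed by nonsense-mediated decay, so the intron can be the main product. MYC is a transcription factor that pairs with MAX on E-box DNA and is known for driving ribosome production.

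Most host genes had a MYC peak. A summit lay inside or within 5000 bp of 28 of the 33 members (84.8%), beside 23.2% of all RefSeq genes, 16.3% of the 18144 other lncRNA genes and 47.7% of protein-coding genes. The members' peaks were also high. The fold enrichment of immunoprecipitate over control at the summit, the authors' own value for each peak, had a median of 22.8 over the 28 members (quartiles 15.1 and 37.6), counting the peak with the highest −log10 q-value of each gene. The same median was 8.01 over other lncRNA genes with a peak and 8.56 over protein-coding genes with a peak. Of the 28, 27 exceeded the median fold of the whole list (7.78), the exception being SNHG31 at 6.75. A fold of at least 20 was reached by 15 of 28 (53.6%), beside 6.64% of other lncRNA, 9.25% of protein-coding and 9.29% of all genes with a peak. The −log10 q-value, a measure of how far a peak stands above the control that grows with read depth, placed the strongest peak of 10 members among the 100 strongest of the list (35.7%, beside 1.22% of other lncRNA, 1.41% of protein-coding and 1.71% of all genes with a peak). These shares describe genes within 1 list, and members were not compared with genes matched for expression, which was not measured here.

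**Figure D1:**
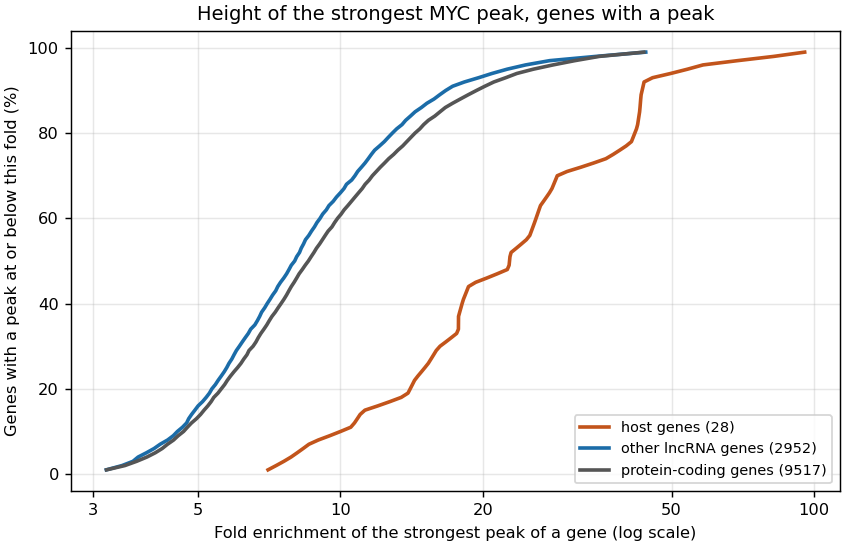
Cumulative distribution of the fold enrichment of the strongest MYC peak (log scale, authors' values) over genes with a peak, for 28 host genes, 2952 other lncRNA genes and 9517 protein-coding genes, drawn at whole percentiles from 1 to 99. The curve of the host genes lies to the right, with a median of 22.8 against 8.01 and 8.56.

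Promoters of 6 members with high peaks are shown to set their E-box letters beside the peaks. That of SNHG30, which has one of the lowest peaks among the members, is shown because its window holds CACGTG. Each is the RefSeq promoter window on GRCh38.p14, from 250 bases before to 50 bases from the annotated start, read 5′ to 3′ along the gene. Capitals mark the E-box CACGTG and its variants CACGCG and CATGTG on either strand. The windows are chr9:136728135-136728434 (minus strand) for SNHG7, chr17:35567864-35568163 (plus) for SNHG30, chr7:22853990-22854289 (plus) for SNHG26 and chr17:76557514-76557813 (plus) for SNHG16. Those of SNHG1, SNHG20 and SNHG8 are chr11:62855836-62856135 (minus), chr17:77088393-77088692 (plus) and chr4:118278512-118278811 (plus).
SNHG7: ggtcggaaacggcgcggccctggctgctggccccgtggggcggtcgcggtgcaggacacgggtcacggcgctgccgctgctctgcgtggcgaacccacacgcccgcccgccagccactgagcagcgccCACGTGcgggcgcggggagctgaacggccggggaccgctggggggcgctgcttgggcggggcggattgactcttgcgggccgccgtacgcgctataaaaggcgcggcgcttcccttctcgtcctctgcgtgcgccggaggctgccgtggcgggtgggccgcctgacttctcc
SNHG30: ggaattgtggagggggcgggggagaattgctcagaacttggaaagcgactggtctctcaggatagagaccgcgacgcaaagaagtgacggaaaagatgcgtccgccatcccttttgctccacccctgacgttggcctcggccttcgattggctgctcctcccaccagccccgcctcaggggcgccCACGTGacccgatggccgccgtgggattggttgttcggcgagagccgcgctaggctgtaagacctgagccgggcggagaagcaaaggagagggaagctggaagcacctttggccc
SNHG26: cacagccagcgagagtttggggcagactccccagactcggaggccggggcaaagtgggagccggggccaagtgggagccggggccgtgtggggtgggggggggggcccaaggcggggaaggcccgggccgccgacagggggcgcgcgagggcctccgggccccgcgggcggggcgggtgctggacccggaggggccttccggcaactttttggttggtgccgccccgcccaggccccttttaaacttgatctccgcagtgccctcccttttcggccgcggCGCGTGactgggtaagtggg
SNHG16: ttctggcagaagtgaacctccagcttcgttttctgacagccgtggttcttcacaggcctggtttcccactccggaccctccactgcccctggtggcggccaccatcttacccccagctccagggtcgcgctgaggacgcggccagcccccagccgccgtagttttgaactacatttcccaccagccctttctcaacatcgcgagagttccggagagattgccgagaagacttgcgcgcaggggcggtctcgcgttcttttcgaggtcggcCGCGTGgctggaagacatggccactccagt
SNHG1: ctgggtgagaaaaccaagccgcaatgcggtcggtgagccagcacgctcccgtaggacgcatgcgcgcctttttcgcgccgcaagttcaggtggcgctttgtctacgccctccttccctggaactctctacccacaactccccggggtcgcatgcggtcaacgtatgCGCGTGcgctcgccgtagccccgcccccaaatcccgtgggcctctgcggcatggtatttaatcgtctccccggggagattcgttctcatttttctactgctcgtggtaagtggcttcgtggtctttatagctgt
SNHG20: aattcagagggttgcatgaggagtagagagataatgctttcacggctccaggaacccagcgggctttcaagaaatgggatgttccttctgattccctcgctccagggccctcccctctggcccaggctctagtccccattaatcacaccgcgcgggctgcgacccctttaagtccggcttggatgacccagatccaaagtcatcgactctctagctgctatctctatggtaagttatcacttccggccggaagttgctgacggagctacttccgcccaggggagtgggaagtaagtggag
SNHG8: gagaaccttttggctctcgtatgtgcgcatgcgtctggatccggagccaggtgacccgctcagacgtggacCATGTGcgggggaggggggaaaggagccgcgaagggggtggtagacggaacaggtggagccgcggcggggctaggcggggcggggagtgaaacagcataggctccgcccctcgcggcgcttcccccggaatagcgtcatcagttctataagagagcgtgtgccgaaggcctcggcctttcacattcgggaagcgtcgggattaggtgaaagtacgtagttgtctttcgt

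SNHG7 and SNHG30 are the 2 members whose window holds CACGTG. By fold, the peak of SNHG7 was the highest among the members and that of SNHG30 was among their lowest. SNHG7, which carries the H/ACA genes SNORA17A and SNORA17B, had the third highest peak of the whole list by both −log10 q (2315) and fold (109), on chromosome 9 from 136727468 to 136729038 (hg38). Its summit lay 101 bp before the annotated start, and 16 bp from the CACGTG, which begins 122 bases before the start. In SNHG30, host of SNORD7, the CACGTG begins 65 bases before the start, but the list held no summit there. Its 1 peak within 5000 bp lay 4262 bp beyond the other end of the gene, with a fold of 7.80, near the median of the whole list (7.78). That summit lay 10521 bp from the CACGTG, so its height does not describe a peak at those letters. The same letters thus stood in a window under one of the highest peaks and in one with no summit.

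The other members shown, picked from those with high −log10 q, had windows with a variant E-box or with none of the 3 words. They are not an unbroken ranking. SNHG17, with −log10 q at 743, ranked above SNHG1, and its window, not shown, holds none of the words. SNHG15 and SNHG9 ranked above SNHG8 but had no window. SNHG26, host of SNORD93, reached 59.5-fold enrichment with −log10 q at 1017 (chromosome 7, 22853988 to 22855175), with its summit 85 bp after the start and 50 bp from a CGCGTG, the reverse complement of CACGCG. SNHG16, host of SNORD1A, SNORD1B and SNORD1C, reached a fold of 42.8 (−log10 q 944, chromosome 17, 76557057 to 76558763), and its summit fell 4 bp after the start and 16 bp from a CGCGTG. SNHG1, which carries 8 box C/D genes from SNORD22 to SNORD31, had a fold of 41.1 (−log10 q 731, chromosome 11, 62855322 to 62856778) and a CGCGTG 20 bp from the summit. The window of SNHG20, host of SCARNA16, holds none of the 3 words, and its peak held rank 10 of the list by −log10 q (1337, fold 42.3, chromosome 17, 77088226 to 77089262). In SNHG8, host of SNORA24, the single CATGTG lay 382 bp from the summit of a peak with a fold of 43.9 (−log10 q 763, chromosome 4, 118278238 to 118279635). High peaks thus stood over windows with CACGTG, with a variant and with none of the 3 words. The summits of SNHG20, SNHG26 and SNHG8 lay beyond the ends of their windows, so the letters at these summits were not searched.

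Across all members, CACGTG was no more frequent than in promoters at large. RefSeq windows were found for 29 members, 30 windows in all because SNHG33 has 2, and none was used for SNHG6, SNHG9, SNHG15 and SNHG25. CACGTG stood in 2 of the 30 (6.67%), in 7.27% of the 34991 windows of all genes and in 11.8% of the 9995 windows with a summit within 1000 bp of the start. CACGCG, or CGCGTG on the other strand, stood in 8 (26.7%), beside 11.4% of all windows and 21.3% of those with a summit. CATGTG, or CACATG, stood in 1 (3.33%), beside 11.1% and 5.62%. In the 21 member windows that themselves had a summit within 1000 bp, CACGTG stood in 4.76%, CACGCG in 33.3% and CATGTG in 4.76%. CACGTG reads the same on both strands and the other words can overlap it by a few letters. The 8 windows with CACGCG belong to SNHG26, SNHG16, SNHG1, SNHG12, SNHG29, SNHG21, SNHG3 and SNHG28. All of these but SNHG28 had a peak, with 16 to 167 bp between the summit and the nearest such word. A window covers 300 bases and only 7 members had their strongest summit inside it, so letters farther from the start were not seen. The median GC content of the member windows was 62.5%, between 58.7% in all windows and 66.7% in those with a summit.

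The strongest summits lay close to the starts of the host genes. The median distance from the annotated start, or from the nearer end of the gene where no start was used, was 115 bp over the 28 members with a peak, beside 508.5 bp over other lncRNA genes and 224 bp over protein-coding genes with a peak. The strongest summit fell within 1000 bp of that point in 25 of all 33 members (75.8%), beside 10.1% of other lncRNA genes, 36.0% of protein-coding genes and 15.9% of all genes. Over the 28 members with a peak this is 89.3%, beside 62.0%, 75.6% and 68.6% of the genes with a peak in the same 3 classes. Of the 24 members with both a peak and an annotated start, 10 had the summit within 100 bp of it and 14 within 200 bp. The summit lay after the start in 17 and before it in 7, and in 19 the peak itself covered the start. The 5 whose peak did not cover it were GAS5, EPB41L4A-AS1, SNHG31, SNHG30 and SNHG14.

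**Figure D2:**
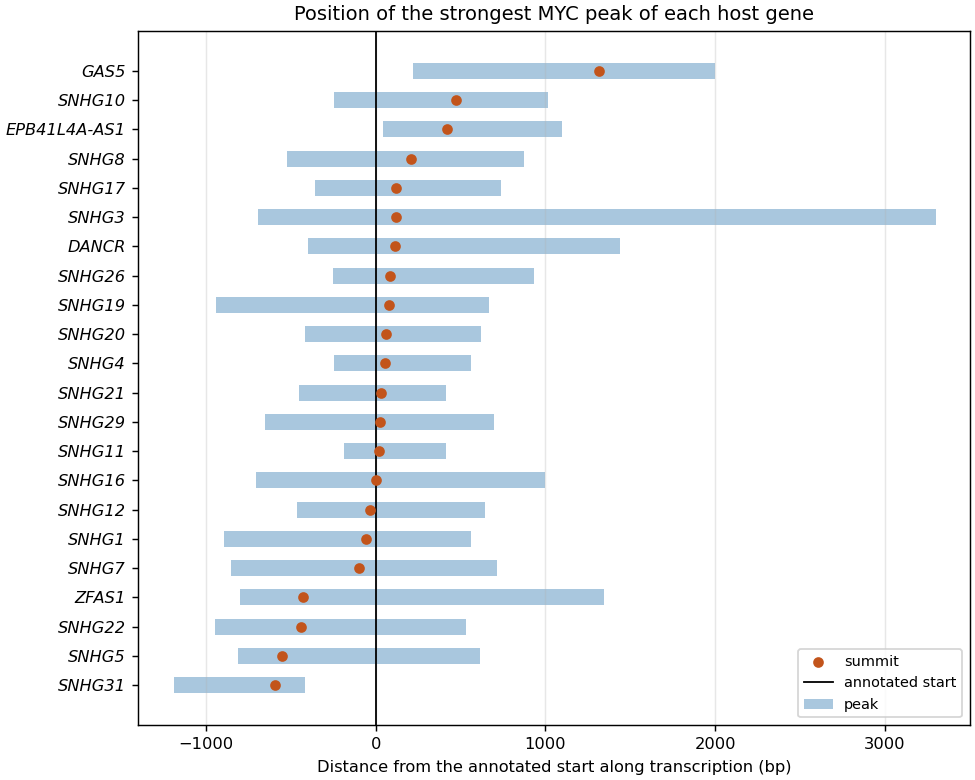
Position of the strongest MYC peak (bar) and its summit (point) relative to the annotated start, in bp along transcription, for 22 of the 24 host genes with a start and a peak. SNHG14 and SNHG30, whose summits lay 54720 and 10461 bp from the start, are outside the axis, and the 4000 bp peak of SNHG3 is the widest bar.

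Peaks at host genes were wide. The median width of the strongest peak was 1350 bp over members, 790 bp over other lncRNA genes and 821 bp over protein-coding genes with a peak, and 747 bp over the whole list. Width and height come from the same reads, so the 2 are not separate observations. The peak of SNHG3 was the widest of all 9818, at 4000 bp (chromosome 1, 28505247 to 28509246). Its fold of 16.1 lay below the members' median of 22.8 but above the upper quartile of the whole list (11.5). The peak ran from before the start across both snoRNA genes of SNHG3, SNORA73A and SNORA73B, which encode the U17 RNA used in ribosomal RNA processing.

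Host genes of box C/D snoRNAs alone numbered 13, of which 11 had a peak, with a median fold of 25.7 and a range of 7.80 to 59.5. Behind SNHG26, SNHG16 and SNHG1 came ZFAS1 (fold 28.8, −log10 q 569), host of SNORD12, SNORD12B and SNORD12C. SNHG25, which at 340 bp is the shortest member and carries SNORD104, had a fold of 27.9 with −log10 q at 609. The H/ACA gene SNORA50C lay 290 bp from its summit, outside the annotated span, and was not counted. SNHG29 followed with a fold of 25.7, SNHG19, host of SNORD60, with 22.8, and SNHG5, host of SNORD50A and SNORD50B, with 17.8. SNHG14, SNHG6 and SNHG30 were the lowest of the group, at folds of 11.1, 10.6 and 7.80. The members of this group without a peak were SNHG18 and SNHG32.

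Of the 12 hosts of H/ACA snoRNAs alone, 11 had a peak, with a median fold of 22.7 and a range of 6.75 to 109. SNHG9, host of SNORA78, reached a fold of 43.1 with −log10 q at 900 (chromosome 16, 1964027 to 1965378). SNHG15, host of SNORA9, stood at 36.5-fold with −log10 q at 925 (chromosome 7, 44985930 to 44987178). SNHG17, which carries 4 SNORA71 genes, had a −log10 q of 743 at a fold of 25.0 (chromosome 20, 38434587 to 38435688). EPB41L4A-AS1, host of SNORA13, stood at 22.7, SNHG4, host of SNORA74A and SNORA74D, at 18.1, and DANCR, host of SNORA26 and of the microRNA gene MIR4449, at 17.7. SNHG3 (16.1), SNHG11 (13.8) and SNHG31 (6.75) closed the group, and SNHG33 had no peak. The median folds of the box C/D and H/ACA hosts lay close together, and their ranges overlapped over most of their length.

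The remaining members hold other mixtures. SNHG12 and GAS5 carry box C/D and H/ACA genes together, and had folds of 18.7 and 15.3. GAS5, named for its rise in growth-arrested cells, holds 11 snoRNA genes, and its summit lay 1315 bp after the annotated start, within SNORD74. The 4 hosts of small Cajal body RNAs all had a peak, at folds of 42.3 in SNHG20, 26.4 in SNHG10, 14.4 in SNHG21 and 8.68 in SNHG22. SNHG27 and SNHG28 hold no snoRNA gene in this annotation, and neither had a peak. Among the 31 members with at least 1 snoRNA gene, 28 thus had a peak and 3 did not.

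**Figure D3:**
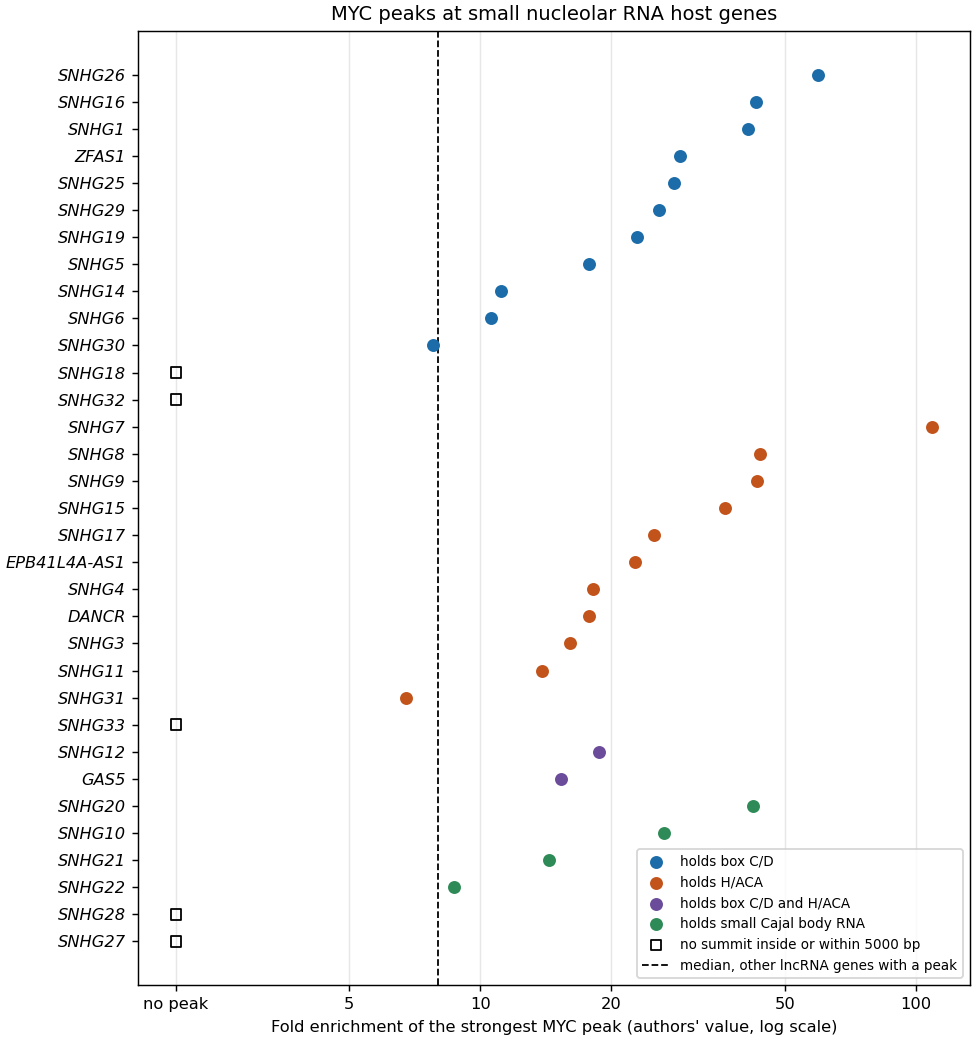
Fold enrichment of the strongest MYC peak (authors' values, log scale) for each of the 33 host genes, coloured by the snoRNA genes it holds. Open squares mark the 5 members with no summit inside or within 5000 bp, and the dashed line is the median of other lncRNA genes with a peak, 8.01, which 26 of the 28 host genes with a peak exceeded.

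In 12 hosts the peak reached a snoRNA gene itself. Leaving out SNHG14 with its 83 SNORD genes, the members with a peak hold 61 snoRNA genes, of which 14 (23%) overlapped a peak. No SNORD gene of SNHG14 overlapped a peak, so counting them would lower this share. In the 190 protein-coding genes with a peak that hold a snoRNA gene outside every member, 7 of 274 such snoRNA genes did (2.55%). The median length was 5145 bp over the 33 members and 45181 bp over all 247 protein-coding genes that hold a snoRNA gene outside every member. The lengths of the genes move with this difference, and their part in it was not tested. Counting the snoRNA genes per host, 16 members hold 1, and the 15 of these with a peak had a median fold of 22.8, beside 21.9 in the 10 with a peak that hold 2 to 4 and 41.1, 15.3 and 11.1 in SNHG1, GAS5 and SNHG14 with 8 or more.

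Only DANCR and SNHG14 had more than 1 peak (7.14% of members with a peak, beside 10.2% of other lncRNA, 16.4% of protein-coding and 14.2% of all genes with one). The second peak of DANCR lay 1456 bp beyond its far end with a fold of 2.84 (−log10 q 9.24), against 17.7 and 228 at its start. SNHG14, the imprinted transcript of 595855 bp that carries the SNORD115 and SNORD116 clusters, had no summit at its annotated start. Its peaks lay 54720 bp (chromosome 15, 24878092 to 24878577, fold 11.1) and 133152 bp (fold 2.57, −log10 q 5.24) into the gene, both also inside SNRPN, a spliceosomal protein gene of the same imprinted locus. Neither peak can be assigned to SNHG14 rather than SNRPN from its position.

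The promoters of 7 members begin with C followed by at least 4 further pyrimidines at the annotated start, the arrangement known as a terminal oligopyrimidine (TOP) tract. This was the case in 23.3% of the 30 member windows, in 4.08% of all windows and in 5.63% of those with a summit within 1000 bp. In 4 of these 7 the letters TATAA also stood 20 to 40 bases before the start, which was searched after the sequences had been seen. Both features together occurred in 33 of 34991 windows (0.0943%) and, among the 12836 windows of lncRNA genes, in those of SNHG5, SNHG19, ZFAS1 and SNHG12 only. TATAA alone stood in 6 of the 30 member windows (those 4 with SNHG7 and SNHG8), beside 3.92% of all windows and 1.66% of those with a summit. In the 21 member windows with a summit within 1000 bp its share was 28.6%. The 70 bases around these 7 starts, 40 before and 30 from the start on, are shown with the pyrimidine run and TATAA in capitals, 5′ to 3′ on GRCh38.p14. They are chr6:85678704-85678773 (minus) for SNHG5, chr16:2155329-2155398 (minus) for SNHG19, chr20:49278602-49278671 (plus) for ZFAS1 and chr1:28581844-28581913 (minus) for SNHG12. Those of SNHG4, SNHG32 and SNHG18 are chr5:139274061-139274130, chr6:31834876-31834945 and chr5:9546160-9546229, all on the plus strand.
SNHG5: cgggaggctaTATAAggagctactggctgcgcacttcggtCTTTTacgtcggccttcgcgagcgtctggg
SNHG19: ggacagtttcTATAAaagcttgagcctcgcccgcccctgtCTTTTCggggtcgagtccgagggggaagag
ZFAS1: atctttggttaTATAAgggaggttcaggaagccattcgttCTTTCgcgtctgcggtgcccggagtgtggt
SNHG12: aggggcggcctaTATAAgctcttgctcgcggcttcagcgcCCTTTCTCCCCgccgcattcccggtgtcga
SNHG4: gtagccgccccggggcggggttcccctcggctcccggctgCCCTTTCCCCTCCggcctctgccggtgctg
SNHG32: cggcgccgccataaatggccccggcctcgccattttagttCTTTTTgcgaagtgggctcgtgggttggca
SNHG18: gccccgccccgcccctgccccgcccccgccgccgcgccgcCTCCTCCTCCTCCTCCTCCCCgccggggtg

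A TOP tract stood in members with a peak and in members without one. SNHG5, SNHG19, ZFAS1, SNHG12 and SNHG4 had folds of 17.8, 22.8, 28.8, 18.7 and 18.1, and SNHG32 and SNHG18 had no peak, SNHG32 lying in a stretch that the list may not cover. The tract stood in 5 of the 21 member windows with a summit within 1000 bp (23.8%) and in 2 of the 9 without (22.2%). Of the 8 members with the highest −log10 q, the 6 with a window (SNHG7, SNHG20, SNHG26, SNHG16, SNHG8 and SNHG17) have no such tract at the annotated start. Runs that begin at any other base were not counted, so a tract at a start used in these cells but annotated elsewhere would be missed. The starts of SNHG7 and SNHG26 carry a run of 4 pyrimidines, 1 fewer than the tract asks for.

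Many of the peaks stood where another gene also ends or begins. A protein-coding gene ended or began no more than 1000 bp from 14 of the 28 strongest summits, beside 62.3% of other lncRNA and 76.7% of all genes with a peak. Of protein-coding genes, whose own ends count here, 82.8% had such a summit. At 10 of the members' 14 summits the neighbour's annotated start lay within 1000 bp. In 6 of these the neighbour is on the opposite strand: SLC3A2, the heavy chain of amino acid transporters, beside SNHG1, ZBTB37 beside GAS5, BARD1, the partner of BRCA1, beside SNHG31, GLRX5, an iron-sulphur cluster factor, beside SNHG10, TRAF7 beside SNHG19, and ACAA2, an enzyme of fatty acid oxidation, beside SNHG22. The other 4 are on the same strand: RCC1, the exchange factor of Ran, with SNHG3, the RNA-binding protein gene MATR3 with SNHG4, SEC14L1 with SNHG20, and LOC124900276 with SNHG7. Ends of RPS2, a ribosomal protein gene, MCMDC2 and ZNFX1 lay within 1000 bp of the summits of SNHG9, SNHG6 and ZFAS1.

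The distance of a summit to each start shows which gene it sits nearest to, where the distances differ. They did not differ at SNHG7 and LOC124900276 (101 bp to each start) or at SNHG4 and MATR3 (56 bp to each), so distance does not separate these pairs. At SNHG31 and SNHG22, the members with the lowest −log10 q among those with a peak (34.7 and 33.3), the summits lay 593 and 441 bp before the host's start but 47 and 49 bp from the starts of BARD1 and ACAA2. At SNHG1 the order was turned, with 59 bp to its own start and 165 bp to that of SLC3A2. The host's start was also nearer at SNHG19 (76 against 500 bp) and SNHG10 (475 against 653 bp). At SNHG3 and SNHG20 the neighbour was nearer, 19 bp from RCC1 and from SEC14L1 against 119 and 61 bp. So it was at GAS5, 650 bp from the start of ZBTB37 against 1315 bp. The summit of SNHG9 lay inside RPS2, 48 bp from an end of RPS2 and 218 bp outside SNHG9. At ZFAS1, whose span holds the summit, an end of ZNFX1 lay 157 bp away, against 428 bp to the ZFAS1 start. A peak between 2 starts cannot be divided between them. The 14 members whose summits lay over 1000 bp from every protein-coding end had a median fold of 23.8 and a range of 11.1 to 59.5, beside 20.5 and 6.75 to 109 for the 14 with such a neighbour. A fold of at least 20 was reached by 8 of the members without such an end, among them SNHG26, SNHG16 and SNHG15. It was reached by 7 of those with one. Only ends were counted, and the summits of SNHG17, EPB41L4A-AS1 and SNHG14 lay inside the genes LOC124904958, EPB41L4A and SNRPN. The nearest protein-coding end was little beyond the limit at SNHG8 (1068 bp), SNHG25 (1178 bp) and SNHG17 (1510 bp).

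Some members lie near each other and had peaks of their own. SNHG17 and SNHG11 on chromosome 20 are separated by 11325 bp, and their peaks had folds of 25.0 and 13.8. SNHG3 and SNHG12 on chromosome 1 lie 67645 bp apart, with 16.1 and 18.7. SNHG9 and SNHG19 on chromosome 16 (43.1 and 22.8) and SNHG16 and SNHG20 on chromosome 17 (42.8 and 42.3) lie 189277 and 523294 bp apart. No 2 members shared a peak.

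The 5 members without a peak lay well outside the 5000 bp limit, and their distances were not compared with those of other genes. The nearest summit lay 69981 bp from SNHG28, 179458 bp from SNHG33, 639482 bp from SNHG18, 1731591 bp from SNHG32 and 2410202 bp from SNHG27. The member just inside the 5000 bp limit was SNHG30, at 4262 bp, so no member stood close to the limit on its outer side. SNHG32, host of SNORD48 and SNORD52, lies on chromosome 6 in a stretch from 28399808 to 33571352 in which the list analysed here holds no summit. This stretch, which includes the major histocompatibility complex, contains 173 protein-coding genes, the most between any neighbouring summits of the list; the next such stretch contains 67. SNHG32 shares the lack of a summit with all genes between these positions. Whether the list covers this stretch is not known here, so SNHG32 cannot be read as a gene without MYC. Leaving it out, chosen after the data were seen, 28 of 32 members had a peak (87.5%). The stretches between summits around SNHG33, SNHG27, SNHG18 and SNHG28 contain 1, 2, 3 and 13 protein-coding genes.

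Genes of the proteins that act with these RNAs are set beside the 47.7% of protein-coding genes with a peak and their median fold of 8.56. All 4 core proteins of box C/D particles had a peak, with folds of 52.7 in NOP58, 24.7 in NOP56, 12.3 in FBL, the methyltransferase fibrillarin, and 16.1 in SNU13, whose summit lay 1650 bp from the start. All 4 core proteins of H/ACA particles did as well, with folds of 33.0 in GAR1, 20.4 in DKC1, the pseudouridine synthase dyskerin, 19.7 in NHP2 and 8.10 in NOP10. NOP58, NOP56 and DKC1 themselves hold 4, 5 and 2 snoRNA genes, so they also count among the protein-coding hosts below. Of 12 assembly factors 9 had a peak, at a median fold of 9.11, near that of protein-coding genes, led by the ATPase gene RUVBL1 (19.6), NAF1 (16.2) and the cap methyltransferase gene TGS1 (12.0). SHQ1, NUFIP1 and ZNHIT3 had none. Nonsense-mediated decay factors had a peak in 8 of 10 cases with a median fold of 11.5, led by UPF1 (24.3), UPF3A (12.7) and SMG5 (12.2), and SMG8 and UPF3B had none.

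Among the 255 protein-coding genes that hold a snoRNA gene, 198 had a peak (77.6%), beside 84.8% of members and 47.7% of all protein-coding genes. Their median fold was 14.7, beside 22.8 and 8.56, and these differences were not tested. Without the genes whose snoRNA genes all lie inside a member, 190 of 247 did (76.9%), with a median of 14.0 and quartiles of 8.10 and 23.7. By −log10 q the strongest of all 255 were LOC124900276, whose peak is that of SNHG7, then RPSA, a small ribosomal subunit gene (fold 94.7), and the sorting nexin gene SNX5 (79.3). Other lncRNA genes that hold a snoRNA gene had a peak in 12 of 25 cases (48.0%), at a median fold of 12.2. The strongest of these were SENP3-EIF4A1 (97.7), a readthrough gene that includes EIF4A1, STARD7-AS1 (13.0) and LOC124901081 (18.1), whose peak is that of SNHG4. Outside the members' own snoRNA genes the share was 11 of 20, at a median fold of 11.4.

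**Figure D4:**
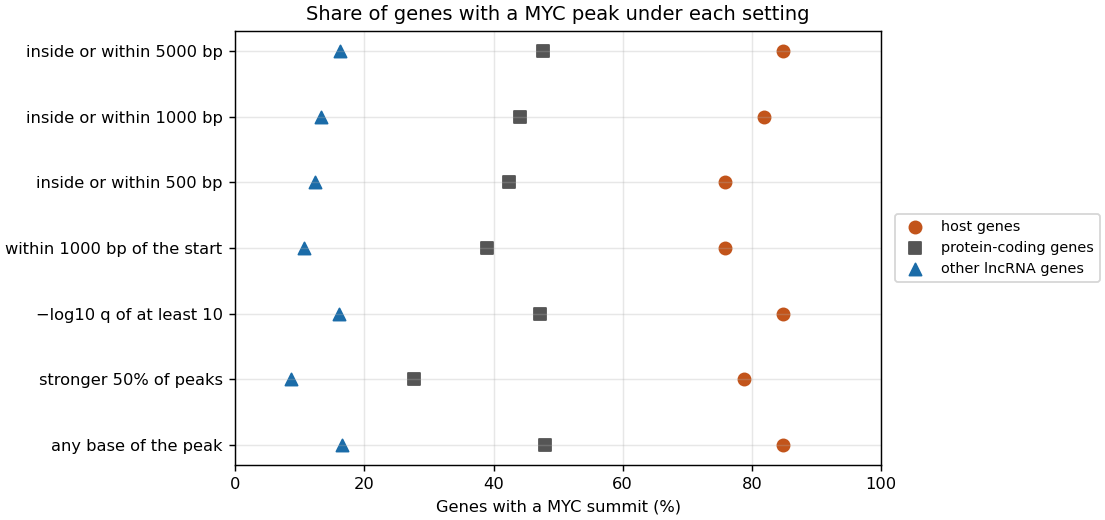
Percentage of genes with a MYC summit for host genes, protein-coding genes and other lncRNA genes under the chosen setting (top) and 6 others for the window, the peak threshold and the overlap. Host genes lie between 75.8% and 84.8% under all 7 settings, protein-coding genes between 27.7% and 47.9% and other lncRNA genes between 8.67% and 16.5%.

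The choice of window and threshold moved the members little. Restricting the window to 1000 bp removed SNHG30, and 500 bp removed SNHG5 and SNHG31 as well. Counting only summits within 1000 bp of the start removed GAS5, SNHG14 and SNHG30. In the stronger 50% of peaks by −log10 q SNHG22 and SNHG31 dropped out, leaving 26 of 33 (78.8%), while the share fell to 8.67% of other lncRNA genes and 27.7% of protein-coding genes.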

How the data were processed

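The submitters' processing notes name MACS2, Bowtie2, Picard, SAMtools and cutadapt with the builds hg38, hg19 and mm10; versions, settings and roles are not given. The peak list is on hg38 by its name. Whether the 2 immunoprecipitated libraries were pooled, and how mouse and input reads were scaled, is not stated in the labels used here, and the list carries no value per library. The deposited list holds the authors' fold enrichment at each summit, a linear ratio, and their −log10 q-value. Its deposited score, which for 99.8% of peaks equals 10 times the −log10 q-value cut to a whole number, was not used. Fold and −log10 q served to describe and rank peaks within the list.

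Genes, spans and promoter windows came from RefSeq on GRCh38.p14 (chromosomes 1 to 22 and X), and starts and strands from the promoter table, where 29 of 33 members matched. Exons were not used, so exonic and intronic summits were not separated. A gene takes its peak with the highest −log10 q within 5000 bp. snoRNA genes were assigned by position inside a span, without strand. No set test or resampling was run, and the counts over all genes serve as background. All members are named, with fuller values for the 8 strongest, those with 2 peaks and those without any; neighbours within 1000 bp of a summit, core proteins and the 3 strongest genes of each other list are named too, except 1 neighbour that is not reported here. Members and lists were chosen with earlier results of these data known. The peak assignment was tested on simulated data. Python 3.11.15, pandas 2.3.3 and NumPy 2.4.6 were used.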

Additional observations from a re-analysis of the deposited data

How the results depend on the processing

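Windows of 1000 and 500 bp, summits near the start alone, a −log10 q of at least 10, the stronger 50% of peaks, overlap by any base and ranking by fold left between 25 and 28 members with a peak and a median fold between 22.8 and 25.0. The share of all genes with a peak, 23.2%, fell to 19.7% and 18.6% with windows of 1000 and 500 bp, to 17.1% near starts alone and to 13.3% in the stronger 50% of peaks. That of lncRNA genes, members included, fell from 16.4% to 13.4%, 12.4%, 10.7% and 8.8%. These windows and peak sets are narrower or smaller by construction. Chosen after the data were seen, the restriction to summits over 1000 bp from every protein-coding end left 14 members, with a median fold of 23.8, and leaving out SNHG32 kept all 28. The motif search in 300 bases around each summit was not run, as no genome sequence was used. No paired analysis was possible because the values come from 1 peak list without values per library, and for the same reason no library could be left out. How depth limits weak peaks is unknown, so a member without a peak is one not detected in this list.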
